A study of Mus musculus with 18 samples.

Results

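Loss of the transcription factor Esrrb was followed between 2 days, and the comparison asked, for each gene, by how much the knockdown effect at day 4 differed from that at day 2. The knockdown effect of a day is the log2 intensity in Esrrb shRNA cells minus the log2 intensity in GFP shRNA cells of the same day. The difference of effects is the effect at day 4 minus the effect at day 2. It equals the change of the knockdown arm from day 2 to day 4 minus the change of the control arm over the same time, so a gene can be called because either arm moved. The comparison rests on 12 of the 18 arrays of the series, 3 in each of 4 groups.

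All 4 groups were E14 cells, an established mouse embryonic stem cell line, kept on gelatin with serum and with LIF, which is the cytokine that holds these cells undifferentiated. They were transfected by Lipofectamine 2000 with a pSUPER.puro plasmid that expresses a short hairpin RNA. The hairpin targeted Esrrb in knockdown cells and GFP in control cells, and RNA was taken at day 2 or day 4. The labels name 1 Esrrb hairpin throughout, and its further effects cannot be separated here from those of Esrrb loss. Whether transfected cells were selected with puromycin is not given in the sources used here. The replicates are labelled as biological. Each of 3 BeadChips held 1 array of every group, always at the same position, and group therefore cannot be told apart from position.

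Esrrb is an orphan nuclear receptor that binds DNA beside Pou5f1, Sox2 and Nanog in mouse embryonic stem cells. With Klf4, Tfcp2l1 and Tbx3 it belongs to the network of the naive state, the state of the epiblast before implantation. Cells that leave this state can take up genes of the later, primed epiblast, or genes of the trophectoderm, the outer epithelium of the blastocyst that forms the placenta. In bulk RNA, fewer cells of a type and less RNA per cell cannot be told apart.

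Each of the 12 arrays measured 46643 probes, with a median of 36 to 38 beads per probe, a median raw intensity of 60.4 to 71.8 and 37.7% to 41.2% of probes detected. The tests covered 14513 genes, each by its brightest probe. The median standard deviation of a gene over the 3 arrays of a group was 0.157 in control cells at day 2, 0.126 in knockdown cells at day 2, 0.122 in control cells at day 4 and 0.101 in knockdown cells at day 4 on the log2 scale. Of 8 embryonic stem cell markers, 7 were matched to a probe and detected on all 12 arrays, with a mean log2 level over these markers of 10.71 to 10.83 on control arrays and 10.32 to 10.58 on knockdown arrays.

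The knockdown effect differed between the days for 699 of 14513 genes (4.82%, limma, Benjamini-Hochberg adjusted p under 0.05), with 337 differences above 0 (2.32%) and 362 below 0 (2.49%). Counts of genes above or below 0 refer throughout to called genes, those past this threshold. A difference of at least 2-fold was reached by 91 of them (0.627%), 41 above 0 (0.283%) and 50 below 0 (0.345%). The smallest called difference was 0.44 in log2, and the median standard error over all genes was 0.17. Of the 699 genes, 697 had the same sign on all 3 BeadChips (99.7%, against 41.5% of all genes tested). These signs come from the same arrays as the calls, which favour such genes, and are no separate test. With the BeadChip as a replicate block, 1033 genes passed (7.12%), among them all 699, with 527 above 0 and 506 below 0. Median centring of the arrays in place of quantile normalization gave 345 above 0 and 134 below 0, so that 72.0% of calls lay above 0 in place of 48.2%. The median difference over all genes was 0.07 under that scaling and -0.004 otherwise. Without replicate 2 of the Esrrb arrays of day 4, 220 genes were called above 0.

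The knockdown arm alone moved in 290 of the 699 genes (41.5%), 145 in each direction. The control arm alone moved in 238 (34.0%), with 107 differences above 0 and 131 below 0. Both arms moved in opposite directions in 87 genes (12.4%) and in the same direction in 69 (9.9%), and neither passed in 15 (2.1%). An arm counts as moved where its own change from day 2 to day 4 had an adjusted p under 0.05, which held for 23.4% of all genes in the control arm and 19.5% in the knockdown arm. These classes use the same arrays as the difference and describe the calls. Among the differences of at least 2-fold, 38 came from the knockdown arm alone, 33 from opposite changes, 10 from the control arm alone and 10 from changes in the same direction. By size instead of p, the change of the knockdown arm was at least 2 times that of the control arm in 286 genes, the reverse held in 206, and the arms lay within 2 times of each other in 207. With the replicate block, 393 genes fell in the class of the control arm alone. Without replicate 2 or 3 of the GFP arrays of day 4 that class held 140 and 153 genes, and without replicate 2 of the Esrrb arrays of day 4 it held 157. The class of changes in the same direction held 45 genes without replicate 3 of the GFP arrays of day 4, 44 without replicate 2 and 45 without replicate 3 of the Esrrb arrays of day 4.

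**Figure D1:**
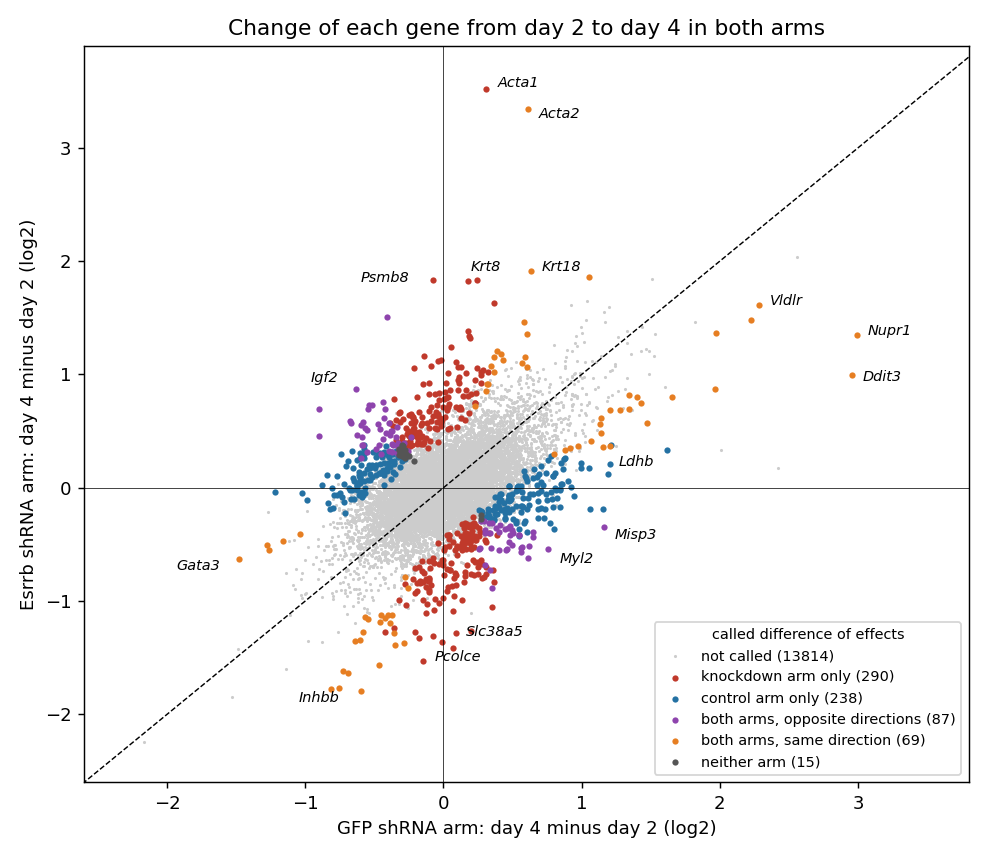
Change of each gene from day 2 to day 4 in GFP shRNA cells (x axis, log2) and in Esrrb shRNA cells (y axis, log2). Each point is a gene, the dashed line marks equal changes, and colours give the arm that moved among the 699 called genes. Acta1 and Krt8 lie far above the line at a control change near 0, Ddit3 and Nupr1 lie far to the right of it.

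Esrrb itself was the check of the design. Its log2 intensity was 13.39, 13.54 and 13.38 on the control arrays of day 2 and 13.71, 13.73 and 13.73 at day 4. In knockdown cells it was 11.12, 11.27 and 11.23 at day 2 and 10.96, 10.98 and 11.08 at day 4. The groups of each day did not overlap, and the level in knockdown cells was 21.3% of control at day 2 and 15.2% at day 4. The difference of -0.49 (SE 0.15, limma adjusted p = 0.0686) missed the threshold. A replicate block brought its adjusted p to 0.0387, and it also passed with the arrays of days 2 and 4 alone (0.0442) and without background correction (0.0294). A second, dim probe of Esrrb stood at a difference of 0.17 (SE 0.17). The core factor genes Pou5f1, Sox2 and Nanog were at -0.18 (SE 0.13, adjusted p = 0.489), 0.18 (SE 0.13, adjusted p = 0.518) and -0.18 (SE 0.14, adjusted p = 0.541), none of which passed.

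Several genes of trophectoderm and simple epithelium had a more positive knockdown effect at day 4 than at day 2, in most cases with a rise in knockdown cells. Of 20 tested trophectoderm genes, 9 had a called difference above 0, 1 had a called difference below 0 and 10 did not pass, against 2.32% and 2.49% of all genes. The median difference of the list was 0.58, with a median change of -0.11 in the control arm and 0.31 in the knockdown arm, where the medians over all genes were 0.002 and 0.003. Over the whole list, 9 genes rose and 6 fell in knockdown cells (10.8% and 8.66% of all genes), and 4 rose and 4 fell in control cells (13.0% and 10.5%). The arms differed by gene: the knockdown arm alone moved in 4 of the 9, both arms in the same direction in 3, both in opposite directions in 1 and the control arm alone in 1. The mean log2 level over the list was 6.88 to 7.02 in control cells at day 2 and 6.79 to 6.87 at day 4, and 7.36 to 7.46 in knockdown cells at day 2 and 7.84 to 7.87 at day 4. The trophoblast genes Elf5, Hand1 and Wnt7b were detected on none of the 12 arrays.

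Krt8 and Krt18 encode the keratin pair of simple epithelia. Krt8 read 7.63, 7.78 and 7.64 in control cells at day 2 and 8.04, 7.77 and 7.79 at day 4. Knockdown cells gave 8.82, 8.84 and 8.85 at day 2 and 10.76, 10.50 and 10.73 at day 4. The control days overlapped and the knockdown days lay far apart: the knockdown arm rose 3.55-fold (1.83 in log2), the control arm stood at 0.18, and the difference was 1.65 (SE 0.14, limma adjusted p = 6.9e-07). Krt18 rose by 0.63 in the control arm and by 1.92 in the knockdown arm, and its difference was 1.28 (SE 0.14, adjusted p = 1.89e-05). Krt7, a further simple epithelial keratin, rose by 1.05 and 1.86, a difference of 0.81 (SE 0.14, adjusted p = 0.00164).

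Rhox9, an X-linked homeobox gene of placenta and gonads, read between 8.07 and 8.37 on all 6 control arrays. It read 8.98, 9.01 and 9.02 in knockdown cells at day 2 and 10.08, 10.13 and 10.16 at day 4, so its difference of 1.16 (SE 0.14, adjusted p = 4.48e-05) came from the knockdown arm alone. Its paralog Rhox6 was at 1.27 (SE 0.28, adjusted p = 0.0105), and cross-hybridisation between the probes of these paralogs was not tested. Gata3, a GATA factor of the trophoblast, fell by 1.48 in the control arm and by 0.63 in the knockdown arm. Its difference of 0.86 (SE 0.24, adjusted p = 0.0465) lost its call under 13 of 20 alternatives (adjusted p = 0.0264 to 0.217 over all of them), and 8 of the 13 left out a single array: replicates 1 and 2 of the GFP arrays of both days and of the Esrrb arrays of day 4, and replicates 1 and 3 of the Esrrb arrays of day 2. Cdx2, a master regulator of trophectoderm, read 5.76 to 6.11 in control cells and 6.74 to 7.01 in knockdown cells over both days, and its difference was 0.05 (SE 0.15, adjusted p = 0.891).

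In the list of simple epithelium and junctions, 5 of 19 genes had a called difference above 0 (2.32% of all genes) and 0 had one below 0 (2.49%). The median was 0.35, and 3 of the 5 are the keratins already named. Cldn7, a tight junction claudin, was undetected in all groups except knockdown cells at day 4, where it read 5.95, 5.75 and 5.84, a rise of at least 1.74-fold within the knockdown arm. Anxa3, a calcium-dependent phospholipid-binding protein, fell by 0.58 in control cells and rose by 0.58 in knockdown cells, a difference of 1.16 (SE 0.14, adjusted p = 4.9e-05). Its 6 control arrays read 8.29, 8.47 and 8.31 at day 2 and 7.67, 7.84 and 7.80 at day 4, and its knockdown arrays 9.04, 8.84 and 8.92 and then 9.52, 9.50 and 9.52. No groups overlapped. Esrp2, a splicing regulator of epithelial cells that is outside the list, fell by 0.60 and rose by 0.56 (difference 1.16, SE 0.20, adjusted p = 0.00155), while its second probe gave 0.22.

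The largest estimated differences among called genes came from muscle-type actins, contractile proteins whose genes are textbook targets of serum response factor. Acta1, skeletal muscle alpha actin, was detected on none of the 9 other arrays and read 8.21, 8.13 and 8.02 in knockdown cells at day 4. That level lay at least 8.40-fold above knockdown cells of day 2 (estimated difference of effects 3.21, SE 0.19, limma adjusted p = 7.41e-09). Acta2, smooth muscle alpha actin, read 4.44, 4.66 and 4.95 in control cells at day 2, where it was undetected, and 5.45, 5.36 and 5.08 at day 4. The knockdown arrays read 5.49, 6.07 and 5.73 at day 2 and 9.02, 9.05 and 9.23 at day 4. The knockdown arm rose 10.1-fold and the control arm at least 1.20-fold. The fitted difference of 2.73 (SE 0.21, adjusted p = 1.85e-07) rests on the undetected control level of day 2 and is no bound. Its other probes were dimmer and gave 0.56 (SE 0.16) and 0.09 (SE 0.16), so the size rests on the brightest probe.

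Of 17 tested genes of the actin and serum response factor list, 5 had a called difference above 0 and 0 had one below 0. The shares over all genes were 2.32% and 2.49%, and the list median was 0.19. All 5 called genes rose in the knockdown arm. Tpm1, a tropomyosin that lines actin filaments, stood at 0.81 (SE 0.15, adjusted p = 0.00328), and Cnn2, a calponin that binds actin, at 0.84 (SE 0.17, adjusted p = 0.00514). Cnn2 read 7.98, 8.39 and 8.09 and then 8.27, 8.22 and 8.28 in control cells, and 8.19, 8.24 and 8.09 and then 9.02, 9.07 and 9.28 in knockdown cells. Thus 3 groups overlapped and knockdown cells at day 4 stood apart. Myl9, a regulatory myosin light chain, was at 0.69 (SE 0.19, adjusted p = 0.042). The fibroblast genes Col1a1, Col1a2, Col3a1 and Lum were detected on no array, and the mean log2 level of the fibroblast list was 7.23 to 7.53 on control arrays and 7.25 to 7.37 on knockdown arrays.

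The promoters of Acta1 and Cnn2 are shown because both carry a CArG box, the letters bound by serum response factor. The box is CC, then 6 letters of A or T, then GG, and it was searched on both strands in the 300 bases from 250 before to 50 after the gene start (RefSeq, build GRCm38.p6). It was found in 1.81% of 27025 promoters, in 6 of the 14 list members with a promoter sequence and in 3 of the 5 called members. The motif was chosen after the calls were known, and a match is a description of these letters. Acta1 lies on the minus strand at chr8:123894726-123895025 with the match starting 73 bases before the gene start, and Cnn2 on the plus strand at chr10:79988350-79988649 with the match 56 bases before it. Capitals mark the CArG box, and both sequences run 5′ to 3′ on the strand of the gene.
Acta1: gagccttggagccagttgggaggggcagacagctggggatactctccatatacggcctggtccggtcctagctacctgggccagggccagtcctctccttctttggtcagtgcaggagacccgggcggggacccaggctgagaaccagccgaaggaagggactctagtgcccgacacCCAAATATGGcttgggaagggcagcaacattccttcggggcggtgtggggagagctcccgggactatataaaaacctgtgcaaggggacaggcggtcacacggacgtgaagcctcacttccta
Cnn2: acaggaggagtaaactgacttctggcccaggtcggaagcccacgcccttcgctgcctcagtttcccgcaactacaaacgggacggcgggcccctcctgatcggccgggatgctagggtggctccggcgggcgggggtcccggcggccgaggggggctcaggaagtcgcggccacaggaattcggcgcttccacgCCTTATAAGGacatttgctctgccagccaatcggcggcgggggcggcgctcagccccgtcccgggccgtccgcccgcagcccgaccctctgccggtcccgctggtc

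Targets and partners of the Hippo pathway, which restrains the coactivator YAP, had called differences above 0 in 5 of 13 tested genes and below 0 in 0. The shares over all genes were 2.32% and 2.49%, and the list median was 0.43. Ptpn14, a phosphatase that restrains YAP, read 6.18 to 6.42 on all 6 control arrays. Knockdown arrays read 6.93 to 7.08 at day 2 and 8.13, 8.19 and 8.06 at day 4. By this brightest probe the difference was 1.15 (SE 0.13, limma adjusted p = 4.49e-05), from the knockdown arm alone. The 3 other probes placed the change differently. Differences of 0.65 and 0.39 came with control changes of -0.56 and -0.48 and knockdown changes of 0.10 and -0.09. That of 0.31 came with a control change of -0.10 and a knockdown change of 0.21. Tead4, the DNA-binding partner of YAP that is also in the trophectoderm list, took another course. Its effect was -0.94 at day 2 and -0.00 at day 4, a difference of 0.94 (SE 0.19, adjusted p = 0.00522). Tead4 rose by 0.60 in knockdown cells, to 5.59, 5.51 and 6.15. In control cells it stood at -0.34, which did not pass (adjusted p = 0.0694). Ccn1 and Ccn2, secreted matrix proteins and classic YAP targets, fell in control cells. Ccn1 was detected on no control array of day 4, so that it fell at least 1.10-fold there and its effect grew at least 1.43-fold (adjusted p = 0.0026). In knockdown cells Ccn1 rose by 0.38 (adjusted p = 0.0395), so both arms moved, in opposite directions. A second Ccn1 probe gave changes of 0.65 in knockdown cells and -0.34 in control cells. Ccn2 fell by 1.16 in the control arm and by 0.47 in the knockdown arm (0.69, SE 0.18, adjusted p = 0.03). Yap1 itself was at -0.08 (SE 0.16, adjusted p = 0.833). The count of 5 fell to 3 without replicate 3 of the GFP arrays of day 2, replicate 2 of the Esrrb arrays of day 2, replicate 3 of the GFP arrays of day 4, or replicate 1 or 2 of the Esrrb arrays of day 4. Ccn2 was not called in 7 of the 12 fits that left out an array (adjusted p = 0.00459 to 0.0862 over all alternatives).

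Further genes rose in the knockdown arm alone. Psmb8, a catalytic subunit of the immunoproteasome, was undetected in control cells at day 4 and read 6.20, 5.72 and 6.53 in knockdown cells at day 2 and 7.87 to 8.08 at day 4. Its effect grew at least 3.46-fold by its brightest probe (estimate 1.91, SE 0.25, limma adjusted p = 9.8e-05), while 2 other probes gave 1.43 and 0.37. It was called alone among 19 tested genes of the interferon and antigen presentation list, a share (5.26%) near the 4.82% of all genes. That list had 2 called differences above 0 and 1 below 0 with the replicate block, 2 above 0 without replicate 3 of the GFP arrays of day 2 or replicate 2 of those of day 4, and 1 below 0 without replicate 1 of the GFP arrays of day 4. Cxcl12, a chemokine, read 5.25, 5.98 and 5.46 and then 5.68, 5.67 and 6.44 in control cells. It read 7.11, 6.95 and 6.99 and then 8.67, 8.67 and 8.62 in knockdown cells, and its difference was 1.27 (SE 0.24, adjusted p = 0.00336). The planar cell polarity gene Prickle1 stood at 1.16 (SE 0.14, adjusted p = 6.16e-05) and Chst1, a sulfotransferase, at 1.18 (SE 0.23, adjusted p = 0.00446). Otx2, a homeobox gene of the primed epiblast, rose by 0.43 in the control arm and by 1.13 in the knockdown arm (difference 0.70, SE 0.15, adjusted p = 0.00687). Of 13 tested primed epiblast genes, 2 were called above 0 (2.32% of all genes) and 1, Foxa2, below 0 (2.49%). Foxa2 fell by 0.46 in the knockdown arm alone (difference -0.70, SE 0.19, adjusted p = 0.0412). Control cells detected it on 1 of 3 arrays on each day, and BeadChip 1 gave a difference of 0.0007. Foxa2 lost its call without replicate 2 or 3 of any of the 4 groups (adjusted p = 0.00793 to 0.108 over all alternatives).

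Many genes of the naive state fell in knockdown cells between the days. Of 19 tested naive pluripotency genes, 6 had a called difference below 0 (2.49% of all genes), 2 had one above 0 (2.32%) and 11 did not pass. The median was -0.39. In the knockdown arm 11 of the 19 fell and 1 rose (8.66% and 10.8% of all genes), and in the control arm 2 fell and 1 rose (10.5% and 13.0%). Of the 6 called differences below 0, 5 came from the knockdown arm alone and 1 from opposite changes. The members Gbx2, Klf4 and Jam2 show the spread: Gbx2 had an effect of 0.03 at day 2 and -0.61 at day 4, Klf4 fell in both arms and its difference of -0.39 (SE 0.15, adjusted p = 0.159) did not pass, and Jam2 was at -0.54 (SE 0.14, adjusted p = 0.0315).

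Tfcp2l1, a transcription factor of the naive network, read 12.56, 12.65 and 12.39 in control cells at day 2 and 12.30, 12.41 and 12.31 at day 4. Its knockdown arrays read 11.39, 11.32 and 11.39 and then 10.49, 10.40 and 10.49. The control days overlapped, the knockdown days did not, and the difference was -0.72 (SE 0.12, limma adjusted p = 0.00129). Tbx3, a T-box factor of the same network, was at -0.57 (SE 0.16, adjusted p = 0.0423). Manba, a lysosomal mannosidase placed in the list as a naive-state marker, fell in knockdown cells from a range of 8.98 to 9.10 to values of 8.15 and lower (difference -1.13, SE 0.15, adjusted p = 0.000129), while a dimmer probe gave -0.15. Tcl1, a coactivator of Akt, rose by 0.33 in control cells and fell by 0.40 in knockdown cells (-0.74, SE 0.14, adjusted p = 0.00337).

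The 2 naive genes called above 0 moved in different arms. Dppa3, which protects maternal methylation in the early embryo, read 7.84 to 8.03 on all control arrays, 8.17, 8.18 and 8.06 in knockdown cells at day 2 and 9.06, 9.07 and 9.05 at day 4. The knockdown arm alone rose, and the difference was 0.90 (SE 0.12, limma adjusted p = 8.1e-05). Fbxo15, an F-box gene of embryonic stem cells, fell by 0.43 in control cells and stood at 0.22 in knockdown cells (0.65, SE 0.16, adjusted p = 0.0235). It lost its call when replicate 1 of the GFP arrays of day 2, replicate 2 of the Esrrb arrays of day 2, replicate 2 or 3 of the GFP arrays of day 4 or replicate 3 of the Esrrb arrays of day 4 was left out (highest adjusted p = 0.0713). Of 5 tested 2-cell-like genes, which mark a rare state with features of the early embryo, 3 were called above 0 (2.32% of all genes). The list median was 0.62. Tmem92 and Tcstv3 rose in the knockdown arm alone (0.69, SE 0.16, and 0.62, SE 0.14, the latter not past the threshold under median centring, adjusted p = 0.0643), and Usp17la fell by 1.04 in the control arm and by 0.41 in the knockdown arm (0.62, SE 0.16). Usp17la did not pass without replicate 3 of the GFP arrays (adjusted p = 0.0714) or of the Esrrb arrays (adjusted p = 0.0703) of day 4.

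Some genes of growth factor signalling changed in the knockdown arm. Bmp4, a ligand that acts beside LIF in self-renewal, read 9.53, 9.48 and 9.48 and then 9.42, 9.32 and 9.42 in control cells. It read 7.67, 7.65 and 7.81 and then 6.87, 6.93 and 6.87 in knockdown cells, a difference of -0.72 (SE 0.12, limma adjusted p = 0.00159) that a dimmer probe (0.17) did not show. With the mean of both probes it was -0.27 and did not pass (adjusted p = 0.194). Inhbb, which encodes an activin and inhibin subunit, fell by 0.59 in the control arm and by 1.79 in the knockdown arm, a difference of -1.20 (SE 0.17, adjusted p = 0.000174). At day 4 it was detected on 1 of 3 knockdown arrays. Etv4, an ETS factor induced by ERK, and Spry4, a feedback inhibitor of ERK signalling, fell in the knockdown arm alone (differences -0.93, SE 0.16, and -0.59, SE 0.13). Spry4 did not pass under median centring (adjusted p = 0.113). The list of FGF and ERK feedback held 2 calls in each direction among 16 genes (2.32% of all genes above 0 and 2.49% below 0). Its calls above 0 were Fgfr2, and Phlda1 with a rise in the knockdown arm alone (0.69, SE 0.16, adjusted p = 0.0148). The BMP and TGF beta list held 1 call above 0 and 2 below 0 among 20 genes, with a median of 0.02. Lefty2, a secreted inhibitor of Nodal, was called above 0 (0.48, SE 0.13, adjusted p = 0.0336) and lost its call under 10 of 21 alternatives (adjusted p = 0.00991 to 0.131), among them each array left out other than replicates 1 and 2 of GFP at day 2, replicate 3 of Esrrb at day 2 and replicate 3 of GFP at day 4.

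The regulators of G1 phase gave 3 called differences below 0 and 0 above 0 among 14 tested genes (2.49% and 2.32% of all genes). Cdkn1c, an inhibitor of cyclin-dependent kinases from an imprinted gene, lay between 9.99 and 10.37 on all 6 control arrays. Its knockdown arrays read 11.29, 11.12 and 11.23 at day 2 and 10.16, 10.08 and 10.18 at day 4. The effect of 1.03 at day 2 was thus 0.02 at day 4, a difference of -1.01 (SE 0.14, limma adjusted p = 0.000153), and the fall lay in the knockdown arm alone. The cyclins Ccnd2, Ccnd3 and Ccne1 also fell in the knockdown arm alone, with differences of -0.68 (SE 0.16, adjusted p = 0.0164), -0.54 (SE 0.14, adjusted p = 0.0346) and -0.53 (SE 0.13, adjusted p = 0.0182). Ccnd2 lost its call without replicate 2 of the Esrrb arrays of day 4 (adjusted p = 0.0515) and Ccne1 without replicate 3 of the GFP arrays of day 4 (0.051). Under median centring Ccnd2 (adjusted p = 0.0772), Ccnd3 (0.324) and Ccne1 (0.17) did not pass. Ccnd3 also lost its call without replicate 1 of any group and without replicate 2 of all groups except GFP at day 2 (highest adjusted p of these 0.0934). The list kept 1 call without replicate 2 of the Esrrb arrays of day 4. Of 27 genes of cell cycle and proliferation, 1 passed, Ccne1, and 2 were called below 0 with the replicate block or without replicate 2 of the GFP arrays of day 2.

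Other genes fell in the knockdown arm alone. Slc38a5, an amino acid transporter, read 7.75, 7.54 and 7.70 and then 7.68, 7.89 and 7.69 in control cells. The knockdown arrays read 7.74, 7.82 and 7.62 at day 2 and 6.34, 6.47 and 6.53 at day 4. The other 3 groups overlapped and knockdown cells at day 4 lay below them, so the knockdown arm fell 2.43-fold and the difference was -1.37 (SE 0.13, limma adjusted p = 6.28e-06). Pcolce, an enhancer of procollagen processing, fell from 9.49, 9.24 and 9.27 to 8.13, 7.89 and 7.91 in knockdown cells and stood at -0.01 in control cells (difference -1.35, SE 0.16, adjusted p = 4.9e-05). Gsta3, a glutathione transferase, was at -1.38 (SE 0.15, adjusted p = 2.53e-05) and Myo1f, a class I myosin, at -1.46 (SE 0.18, adjusted p = 4.9e-05). Apoc4, an apolipoprotein gene, fell by 1.06 in knockdown cells from a level above control, and its difference was -1.40 (SE 0.24, adjusted p = 0.00123). Mapt, the microtubule protein tau, fell from 8.59, 8.93 and 8.67 to 7.48, 7.49 and 7.39 in knockdown cells, a difference of -1.07 (SE 0.18, adjusted p = 0.000987).

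**Figure D2:**
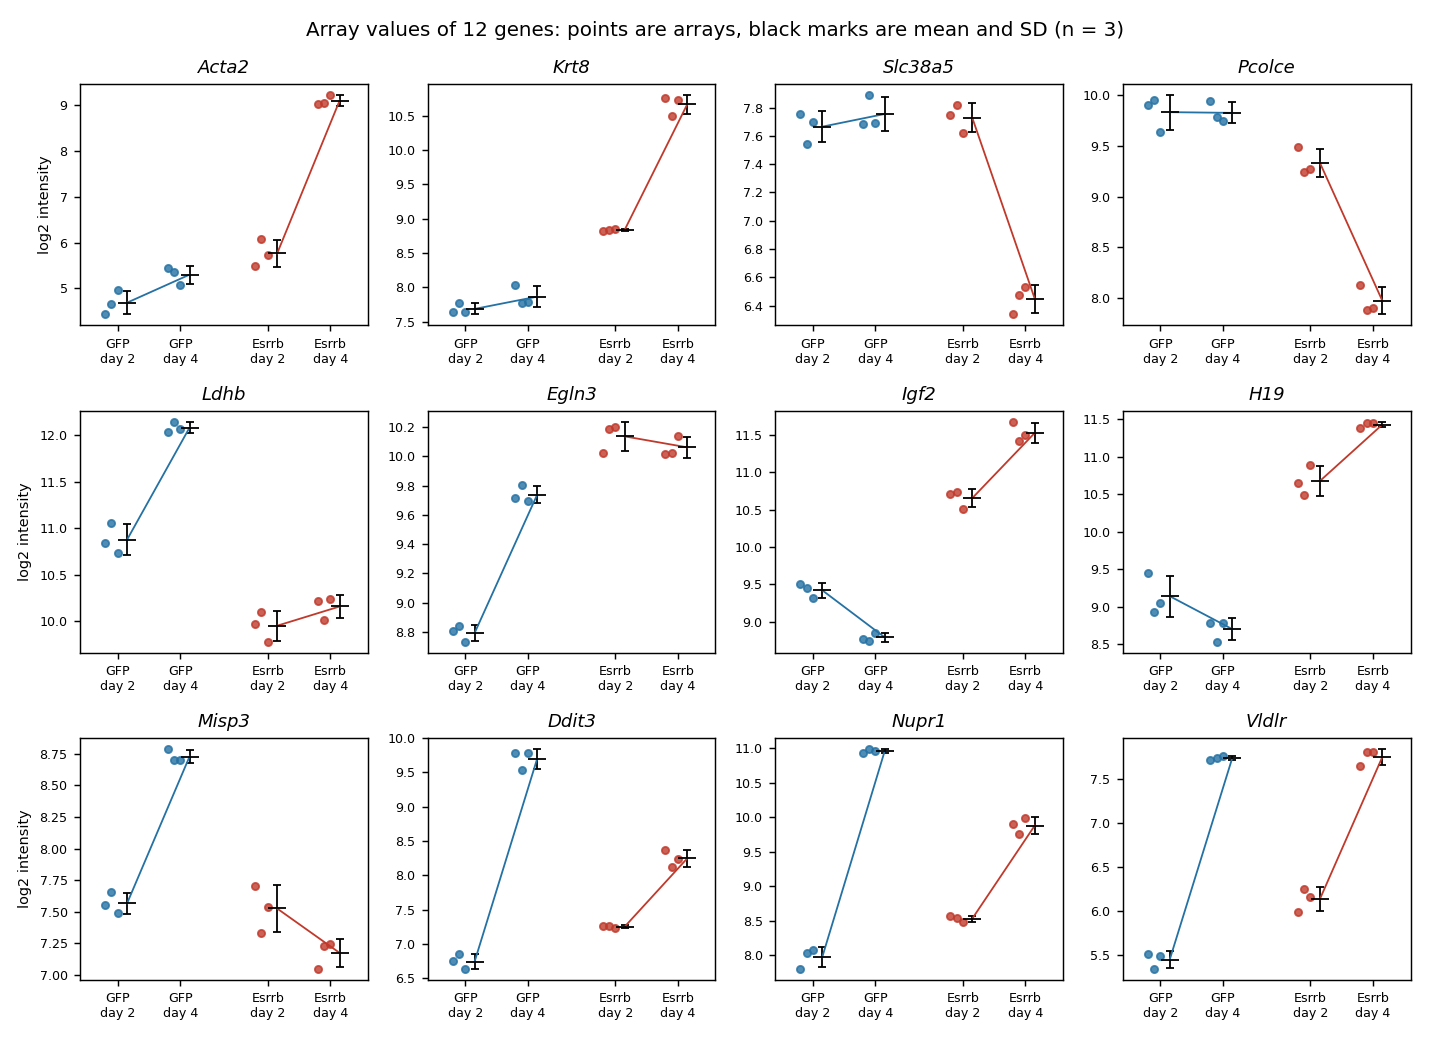
Log2 intensity of 12 genes on every array (points, blue for GFP shRNA and red for Esrrb shRNA), with the mean and SD of each group (black, n = 3) and lines that join the days of an arm. Krt8, Slc38a5 and Pcolce move in the Esrrb shRNA arm, Egln3 and Ldhb in the GFP shRNA arm, Igf2, H19 and Misp3 in opposite directions, and Ddit3, Nupr1 and Vldlr rise in both.

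The control arm alone gave another set of genes, in which control cells changed between day 2 and day 4 and knockdown cells did not pass. Ldhb, a subunit of lactate dehydrogenase, read 10.85, 11.06 and 10.73 in control cells at day 2 and 12.04, 12.15 and 12.07 at day 4, a rise of 2.31-fold. Knockdown cells gave 9.97, 10.10 and 9.78 and then 10.22, 10.02 and 10.25, and these days overlapped. The effect went from -0.93 at day 2 to -1.92 at day 4 (limma adjusted p of the difference = 0.000845, SE 0.16). Aldoc, a glycolytic aldolase, rose in both arms, by 1.14 and 0.62 (-0.53, SE 0.13, adjusted p = 0.0248). It lost its call without replicate 3 of GFP at day 2, replicate 2 of Esrrb at day 2, replicate 1 of GFP at day 4 or replicate 2 or 3 of Esrrb at day 4 (highest adjusted p over the alternatives 0.174). In the glycolysis list 11 of 19 genes rose in control cells (against 13.0% of all genes) and 6 in knockdown cells (against 10.8%), while Ldhb and Aldoc were the 2 called for the difference (against 4.82%).

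Hypoxia targets rose on both sides, 12 of 18 in control cells (13.0% of all genes) and 11 in knockdown cells (10.8%), and 3 of them were called for the difference (4.82%). Egln3, a prolyl hydroxylase that marks HIF for degradation, read 8.80, 8.84 and 8.73 and then 9.72, 9.80 and 9.69 in control cells. In knockdown cells it read 10.02, 10.19 and 10.20 and then 10.02, 10.03 and 10.14. Control cells rose 1.93-fold toward a level that knockdown cells already held at day 2, and the difference was -1.02 (SE 0.13, limma adjusted p = 9.69e-05). A dimmer Egln3 probe gave 0.50 (SE 0.16), opposite in sign, and with the mean of the probes Egln3 was at -0.26 and did not pass (adjusted p = 0.127). Bhlhe40, a transcriptional repressor, had effects of 0.85 at day 2 and 0.23 at day 4 (difference -0.62, SE 0.13, adjusted p = 0.00771), and did not pass under median centring (adjusted p = 0.139). Slc2a1, the glucose transporter, rose in the knockdown arm alone (0.44, SE 0.12, adjusted p = 0.036). It lost its call without replicate 1 of any group, replicate 2 of the Esrrb arrays of either day or replicate 3 of the GFP arrays of day 4 (highest adjusted p of these 0.0927). Slc2a1 did not pass under median centring either (0.161).

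Genes of cholesterol synthesis and uptake rose in 9 of 21 cases in control cells (13.0% of all genes) and in 0 in knockdown cells (10.8%). For the difference 3 were called, all below 0 (2.49% of all genes). The list median of the difference was -0.28, with 0.25 in the control arm and -0.06 in the knockdown arm. Msmo1, an oxidase of sterol synthesis, read 11.10, 11.16 and 11.11 and then 11.74, 11.91 and 11.85 in control cells, and 11.46 to 11.58 on all 6 knockdown arrays. Knockdown cells thus stood above control at day 2 and below it at day 4 (difference -0.66, SE 0.12, limma adjusted p = 0.00233). Fdps, farnesyl diphosphate synthase, had the same order (-0.68, SE 0.13, adjusted p = 0.00282), though a dimmer probe gave -0.06. The count of 3 became 5 with the replicate block, 5 with a stricter filter, 6 with the mean of the probes of a gene and 7 without background correction.

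Among 39 genes of oxidative phosphorylation and the TCA cycle, 2 were called, a share (5.13%) near the 4.82% of all genes. Both encode muscle-type subunits of cytochrome c oxidase. Cox7a1 read 9.29, 9.19 and 9.27 and then 10.19, 10.03 and 10.10 in control cells, and 8.64 to 8.84 on all 6 knockdown arrays (difference -0.83, SE 0.12, limma adjusted p = 0.000458). Cox6a2 was detected in control cells of day 4 alone, where it rose at least 1.49-fold. Crabp1, a carrier of retinoic acid, rose 1.80-fold in control cells, from 6.54, 6.93 and 6.72 to 7.57, 7.57 and 7.59, and did not pass in knockdown cells (difference -0.87, SE 0.18, adjusted p = 0.00628, and 0.056 under median centring). Further rises of the control arm alone were those of Lst1 (difference -1.34, SE 0.21), Slc17a7, a vesicular glutamate transporter (-1.17, SE 0.23), and Ppfibp2, a liprin (-1.02, SE 0.21).

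Among genes detected on at least 2 arrays of each group, the 5 largest differences with a fall of the control arm alone lay between 0.83 and 0.91. Peg10, an imprinted gene needed for the placenta, read 5.84, 5.95 and 5.65 and then 5.28, 5.12 and 5.21 in control cells, and 5.43, 5.13 and 5.11 and then 5.52, 5.37 and 5.71 in knockdown cells. The effect was -0.59 at day 2 and 0.33 at day 4, a difference of 0.91 (SE 0.16, limma adjusted p = 0.00183). Gigyf1, which binds a translation repressor, changed in the same way (0.87, SE 0.14, adjusted p = 0.000999), and its dimmer probe gave 0.24. Lpp, a LIM protein of focal adhesions, fell 1.49-fold in control cells (0.87, SE 0.15, adjusted p = 0.00152), with 0.08 by its dimmer probe. Myo1d, a class I myosin, and Nuak1, a kinase of the AMPK family, were at 0.87 (SE 0.19, adjusted p = 0.0116) and 0.83 (SE 0.19, adjusted p = 0.0106). Fgfr2, an FGF receptor, fell by 0.34 in control cells (adjusted p = 0.041) and stood at 0.33 in knockdown cells (adjusted p = 0.0604). Its control days overlapped and its knockdown days did not. The difference of Fgfr2 was 0.67 (SE 0.17, adjusted p = 0.0236), but its other probes gave 0.29 and -0.55. Its call was lost without 7 of the arrays in turn and with the mean of its probes (adjusted p = 0.00178 to 0.634 over all alternatives).

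Opposite changes were found for a pair of neighbouring imprinted genes. Igf2, a fetal growth factor, read 9.50, 9.45 and 9.31 in control cells at day 2 and 8.77, 8.74 and 8.85 at day 4. The knockdown arrays read 10.71, 10.74 and 10.51 and then 11.68, 11.41 and 11.50. No groups overlapped: Igf2 fell 1.55-fold in control cells, rose 1.83-fold in knockdown cells and reached a difference of 1.50 (SE 0.17, limma adjusted p = 2.53e-05). H19, a noncoding RNA from the other parental copy of the same domain, fell by 0.44 and rose by 0.75 (1.19, SE 0.18, adjusted p = 0.000591). Of 17 tested imprinted genes, 4 were called above 0 and 2 below 0 (2.32% and 2.49% of all genes), with a median of 0.07. Peg3 was called above 0 through the control arm alone (0.79, SE 0.15, adjusted p = 0.00318), while Phlda2, a placental growth restrainer, rose by 0.33 in control cells and fell by 0.31 in knockdown cells (-0.64, SE 0.14, adjusted p = 0.00963). With the replicate block, 7 imprinted genes were called above 0.

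In the other direction, control cells rose and knockdown cells fell for 38 genes. Misp3 read 7.56, 7.65 and 7.49 and then 8.79, 8.70 and 8.70 in control cells, and 7.70, 7.34 and 7.54 and then 7.05, 7.23 and 7.24 in knockdown cells. The arms overlapped at day 2 and lay apart at day 4, and the difference was -1.51 (SE 0.14, limma adjusted p = 2.5e-06). Myl2, the regulatory light chain of ventricular myosin, behaved alike at a low level: it rose by 0.76 in control cells and fell by 0.54 in knockdown cells (-1.30, SE 0.17, adjusted p = 0.000124), opposite in sign to the actins Acta1 and Acta2. Cd74, the invariant chain of MHC class II, stood above control at day 2 and below it at day 4 (-1.23, SE 0.17, adjusted p = 0.000138). Fam25c was at -1.24 (SE 0.15, adjusted p = 4.55e-05).

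Genes of the integrated stress response, the program that ATF4 drives when amino acids or protein folding fail, rose on both sides, and several of them rose less in knockdown cells. In control cells 13 of 25 rose and 0 fell (13.0% and 10.5% of all genes), and in knockdown cells 11 rose and 1 fell (10.8% and 8.66%). For the difference, 8 were called below 0 and 0 above 0 (2.49% and 2.32% of all genes), with a median of -0.16. Ddit3, the proapoptotic factor CHOP, read 6.75, 6.85 and 6.64 in control cells at day 2 and 9.78, 9.53 and 9.78 at day 4. In knockdown cells it read 7.26, 7.27 and 7.23 and then 8.37, 8.12 and 8.24. Knockdown cells stood above control at day 2 and below it at day 4: the control arm rose 7.75-fold, the knockdown arm 1.99-fold, and the difference was -1.96 (SE 0.15, limma adjusted p = 1.85e-07). Nupr1, a stress-induced chromatin protein, rose 7.94-fold in control cells and 2.55-fold in knockdown cells (-1.64, SE 0.14, adjusted p = 5.84e-07).

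Vldlr, a lipoprotein receptor, read 5.52, 5.35 and 5.49 and then 7.71, 7.74 and 7.76 in control cells, and 5.99, 6.26 and 6.16 and then 7.64, 7.80 and 7.80 in knockdown cells. Both arms reached the same range at day 4 from different starts (difference -0.67, SE 0.13, limma adjusted p = 0.00411), and a dimmer probe gave 0.12. Vldlr did not pass under median centring (adjusted p = 0.0882) or with the mean of its probes (-0.28, adjusted p = 0.207), nor did Trib3 under median centring (0.0606). Trib3, a pseudokinase that inhibits Akt, rose by 1.07 and 0.41 (-0.65, SE 0.13, adjusted p = 0.00373), and Chac1, which degrades glutathione, by 1.34 and 0.82 (-0.52, SE 0.14, adjusted p = 0.0378). Mthfd2, of mitochondrial folate metabolism, was at -0.60 (SE 0.16, adjusted p = 0.0343), and Sars, a seryl-tRNA synthetase, at -0.50 (SE 0.14, adjusted p = 0.0404). Cth, of cysteine synthesis, took part differently: it fell by 0.91 in knockdown cells and stood at -0.11 in control cells (-0.80, SE 0.22, adjusted p = 0.0412). Atf4 itself was at -0.06 (SE 0.22, adjusted p = 0.917) and Asns, its target in asparagine synthesis, at -0.02 (SE 0.14, adjusted p = 0.956). The count of 8 was 4 or 5 when any array was left out other than replicate 2 of GFP at day 2, replicate 3 of Esrrb at day 2 and replicate 1 of GFP at day 4, and it was 2 under median centring.

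The promoters of Nupr1, Vldlr and Trib3 are shown because they hold TGATGNAA, the composite element of C/EBP and ATF factors, searched on both strands over the same window. It was found in 4.51% of 27025 promoters, in 9 of the 22 list members with a promoter sequence and in 4 of the 7 called ones, and this motif too was chosen after the calls were known. Nupr1 lies on the minus strand at chr7:126625421-126625720, with the match starting 110 bases before the gene start. Vldlr lies on the plus strand at chr19:27216770-27217069, with the match 200 bases before it. Trib3 lies on the minus strand at chr2:152344011-152344310, with the match 14 bases after it. Capitals mark the element, which in all 3 stands on the strand opposite to the gene.
Nupr1: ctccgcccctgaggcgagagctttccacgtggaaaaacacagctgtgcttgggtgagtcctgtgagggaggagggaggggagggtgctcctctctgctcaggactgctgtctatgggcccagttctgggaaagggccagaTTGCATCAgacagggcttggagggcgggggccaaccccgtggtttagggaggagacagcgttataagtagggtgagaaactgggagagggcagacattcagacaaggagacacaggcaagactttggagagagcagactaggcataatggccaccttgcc
Vldlr: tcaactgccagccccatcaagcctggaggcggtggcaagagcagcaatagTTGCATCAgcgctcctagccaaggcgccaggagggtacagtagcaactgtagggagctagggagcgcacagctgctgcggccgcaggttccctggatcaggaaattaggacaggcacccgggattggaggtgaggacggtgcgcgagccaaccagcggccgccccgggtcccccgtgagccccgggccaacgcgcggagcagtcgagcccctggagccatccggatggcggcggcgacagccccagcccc
Trib3: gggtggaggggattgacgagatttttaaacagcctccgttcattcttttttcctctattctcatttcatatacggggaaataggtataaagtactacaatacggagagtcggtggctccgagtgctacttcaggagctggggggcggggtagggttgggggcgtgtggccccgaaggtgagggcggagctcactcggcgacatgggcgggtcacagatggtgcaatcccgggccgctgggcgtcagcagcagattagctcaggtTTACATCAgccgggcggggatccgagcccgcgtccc

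By the effects on each day, 431 of the 699 genes (61.7%) had an effect that passed at day 4 alone. A further 138 (19.7%) passed on both days with a larger effect at day 4, and 73 (10.4%) passed at day 2 alone. Over all genes, 12.3% had an effect above 0 and 11.1% below 0 at day 4, and 6.59% and 5.55% at day 2. These shares over all genes hold whether or not the other day passed. A call favours genes whose effects differ between the days, so the patterns describe the calls. Opposite signs on the days were found for 32 genes, a smaller effect at day 4 for 10, and 15 passed on neither day. The genes that passed at day 2 alone came from the control arm alone in 35 cases and from the knockdown arm alone in 26. Cdkn1c and Tead4 are examples from the knockdown arm, and Bhlhe40 is one from the control arm. Among the 32 with opposite signs, 13 had opposite changes of the arms, 9 moved in the control arm alone, 6 in the knockdown arm alone and 4 in the same direction.

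**Figure D3:**
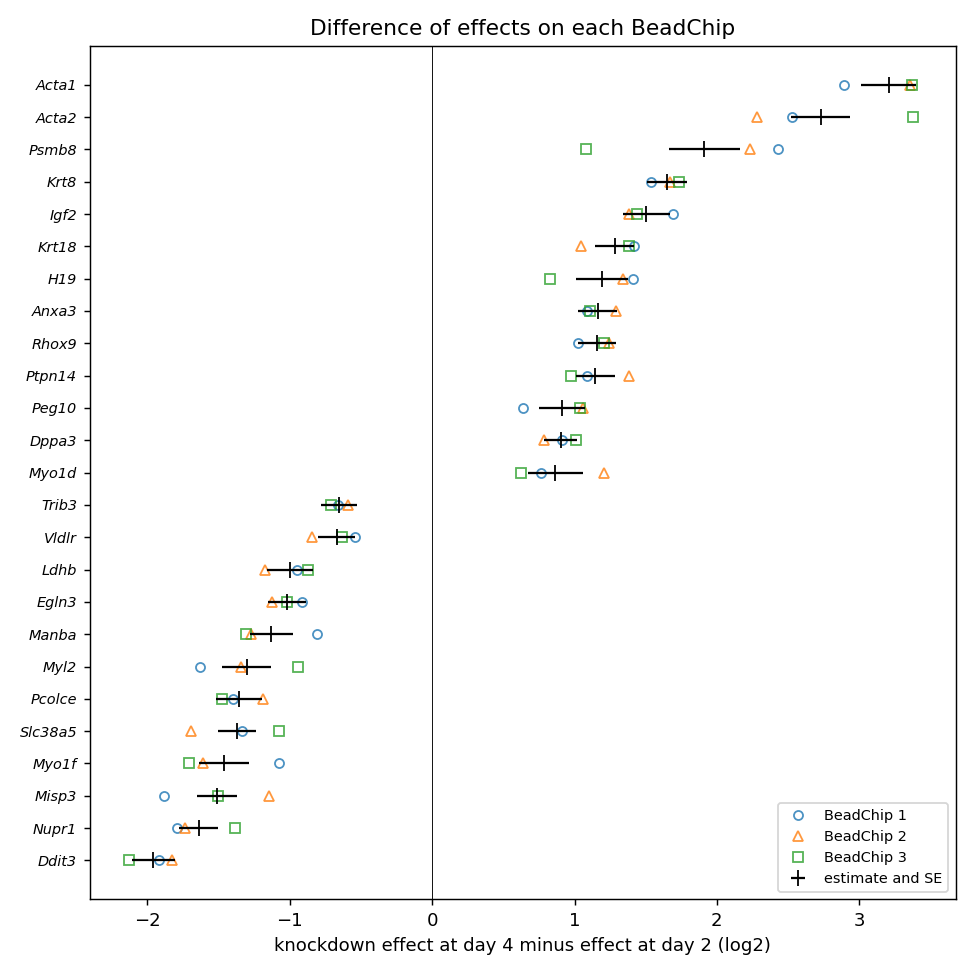
Difference of effects (log2) computed on each of the 3 BeadChips from its 4 arrays (open symbols) for 25 genes, with the estimate and its standard error (black). All 3 BeadChips lie on 1 side of 0 for each gene shown, and Acta2 and Psmb8 spread most between BeadChips. The genes shown were called from these same arrays, so the shared sign is no separate test.

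The share of called genes over all genes was 4.82%, against which other lists held the following counts. Ribosomal protein genes had 0 calls among 24 (limma), 0 at an unadjusted p under 0.05 and a median of -0.05. General pluripotency genes had 1 of 18, Lefty2. The LIF and STAT3 list had 2 of 17, Gbx2 and Spry4, both below 0 with a fall in the knockdown arm alone (Gbx2 -0.63, SE 0.12, adjusted p = 0.00411, and 0.0535 with the mean of its probes). Of 14 genes of heat shock and the unfolded protein response, Sdf2l1 alone passed (-0.49, SE 0.14, adjusted p = 0.0464), and it lost its call under 11 of 21 alternatives (adjusted p = 0.0242 to 0.26), 9 of them single arrays left out. In the fibroblast list, Thy1, a surface glycoprotein, fell in the knockdown arm (-0.69, SE 0.14, adjusted p = 0.00492), and 2 genes of that list were called below 0 without replicate 2 of the GFP arrays of day 2.

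**Figure D4:**
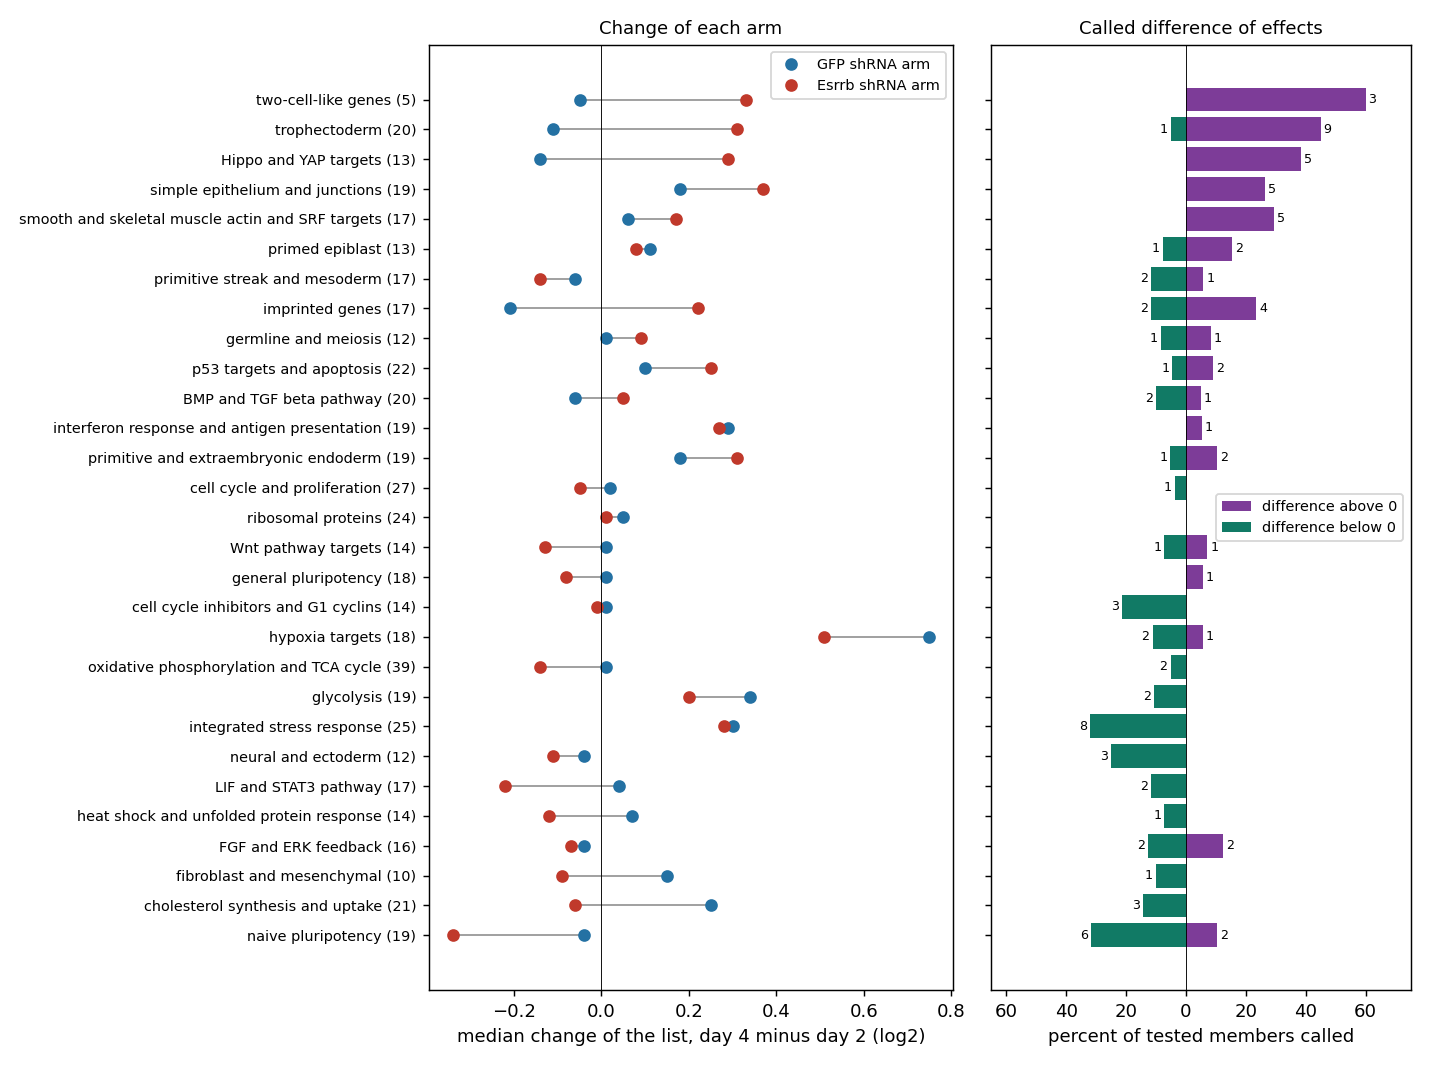
Left, median change from day 2 to day 4 (log2) over the tested genes of each list in GFP shRNA cells (blue) and Esrrb shRNA cells (red), with the number of tested genes in brackets. Right, percent of tested genes called for a difference of effects above 0 (purple) or below 0 (green), with the number of genes beside each bar. Trophectoderm genes (9 of 20 called above 0) and naive pluripotency genes (6 of 19 called below 0) part mainly in the Esrrb shRNA arm, cholesterol genes in the GFP shRNA arm, and hypoxia targets rise in both.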

How the data were processed

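RNA of E14 mouse embryonic stem cells was measured with 1 array per sample (Illumina MouseWG-6 V1.1 BeadChips). The deposited intensity of a probe is the mean over its beads, summarised with BeadStudio 3.2.6 without normalization, per the file headers. The deposited detection score is a fraction from 0 to 1, and the detection p was taken as 1 minus this score. The deposited number of beads per probe (unit: other) served to describe depth. The authors' second table holds intensity values normalized between arrays by a method not given in the sources used here. Its scale is linear and its probes could not be named, so it gave counts of calls only.

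In R 4.3.3, neqc of limma 3.58.1 used the detection p-values to correct the background, with an offset of 16, then quantile-normalized the arrays and took log2. Probes with a detection p under 0.05 on all 3 arrays of at least 1 of the 6 groups were kept (19432), without the 461 targets that name no mouse gene. The brightest probe stood for its gene. RefSeq (GRCm38.p6) matched 16079 of 34325 target names as current symbols and 6654 through a synonym, 11104 were kept as given, and 27 names changed by a spreadsheet were left unnamed. A further 88 columns of per-sample values were not used.

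A model of 6 groups over all 18 arrays gave the difference of effects, the change of each arm and the effect of each day. It was tested two-sided with lmFit, contrasts.fit and eBayes, adjusted by Benjamini-Hochberg over all genes per contrast, with a threshold of 0.05. The script was checked on simulated data. Errors are standard errors of the model, and 3 arrays per group limit the precision. A group with no detection on its 3 arrays took, per array, the higher of its own level and the dimmest detected level, and the fold is then given as "at least". Of the called genes, 61 had such a group.

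Samples with the same replicate number shared a BeadChip, per the file headers. The deviations from group means of such samples correlated at 0.02 to 0.31 (18 pairs), against -0.27 to 0.11 for other pairs (36). These ranges overlap, and deviations from a group mean cancel within the group, so the ranges are not independent of each other. The replicate number was tried as a replicate block.

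The gene lists and the rule for named genes were chosen with earlier results of these data known. The rule took Esrrb, Pou5f1, Sox2 and Nanog, then, among called genes with a gene symbol detected on at least 2 arrays of each of the 4 groups, in each direction the 5 largest where 1 arm moved, the 4 largest of opposite changes and the 2 largest of the other classes. It added up to 4 called members of each list by adjusted p and the 4 largest estimates in each direction among called genes with an undetected group. Further list members were named after their values were seen. The alternatives were the arrays of days 2 and 4 alone, the replicate block, median centring, no background correction, no filter, a stricter filter, the mean of a gene's probes, array weights, the arm judged by size, each array left out, the authors' second table and, chosen after seeing the data, genes detected on all 12 arrays. Results for a few genes are not reported here.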

Additional observations from a re-analysis of the deposited data

Results flagged for a closer look

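The tested difference between the days was itself the result for 699 genes. Among the named genes, 9 had an effect that passed on both days with opposite signs (limma). The stress genes Ddit3 and Nupr1 were higher in knockdown cells at day 2 and lower at day 4, with differences of -1.96 and -1.64. The sterol synthesis genes Fdps and Msmo1 ran the same way at -0.68 and -0.66, as did Apoc4 at -1.40, Cd74 at -1.23 and Tex14, a gene of germ cell bridges, at -0.84. Gigyf1 and Peg10 ran the opposite way, lower in knockdown cells at day 2 and higher at day 4, at 0.87 and 0.91. The signs of the difference were the same on all 3 BeadChips for each of these genes, by the same arrays that gave the calls.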

How the results depend on the processing

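The 92 named genes that were called kept the sign of their difference under all alternatives in which they were tested, and 1814 of 1980 results for named genes also kept their side of the threshold. Calls were lost in 163 of them and gained in 3, all 3 for Esrrb. With the arrays of days 2 and 4 alone, 479 genes were called, 467 of them among the 699, with 211 above 0, 150 in the class of the control arm alone and 1 with neither arm. The replicate block gave 527 above 0, 393 for the control arm alone and 33 with neither arm. Where no other value with the block is given, it ended no call of a named gene. Median centring gave 134 below 0, 151 for the control arm alone, 46 opposite and 29 in the same direction. Without background correction 34 genes, and without a filter 6, had neither arm. Leaving out single arrays gave 474 to 820 calls, 220 to 405 above 0 and 254 to 415 below 0. The classes then held 203 to 337 genes (knockdown arm alone), 140 to 312 (control arm alone), 58 to 88 (opposite), 44 to 60 (same direction) and 6 to 24 (neither). The mean of a gene's probes turned the sign of 2 calls, neither of a named gene. The authors' processed values called 646 of 46632 probes, 319 above 0 and 327 below 0. The detection floor limits what can be said of dim genes. With the processing described above, a difference of effects of less than about 0.44 in log2 was called for no gene.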

Other observations

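Germ cell and lineage genes that are not described above gave single calls in mixed directions. Tex14, which forms the bridges between germ cells, rose by 1.21 in the control arm and by 0.37 in the knockdown arm, a difference of -0.84 (SE 0.15, limma adjusted p = 0.0017). Of 12 germline genes, it was the 1 called below 0 (2.49% of all genes), and Dppa3 the 1 called above 0 (2.32%). Of 19 genes of primitive and extraembryonic endoderm, 2 were called above 0 (2.32% of all genes) and 1 below 0 (2.49%). The median of that list was -0.00. Ttr, a carrier of thyroid hormone made by visceral endoderm, was detected in knockdown cells of day 4 alone, where it rose at least 1.10-fold, and Fgfr2 was the other called above 0. Of 17 genes of primitive streak and mesoderm, Bmp4 and Cdx1 were called below 0 (2.49% of all genes) and Wnt8a above 0 (2.32%). Wnt8a, a Wnt ligand, was undetected in control cells on both days and lost its call under 10 of 19 alternatives (highest adjusted p = 0.174), 7 of them single arrays left out: replicates 1 and 3 of GFP and of Esrrb at day 4, replicate 3 of GFP at day 2 and replicates 1 and 2 of Esrrb at day 2. Cdx1, a homeobox gene of the posterior embryo, rose by 0.44 in control cells and was undetected in knockdown cells on both days, so that the size of its difference is not given (adjusted p = 0.0182). It did not pass under median centring or without replicate 2 of the GFP arrays or of the Esrrb arrays of day 4.

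Of 22 p53 targets and apoptosis genes, 2 were called above 0 (2.32% of all genes), 1 below 0 (2.49%) and 19 did not pass. Plk2, a polo-like kinase, fell by 0.29 in control cells and rose by 0.34 in knockdown cells (0.62, SE 0.14, limma adjusted p = 0.0132). Gadd45a, a stress sensor, fell in knockdown cells alone (-0.68, SE 0.13, adjusted p = 0.00364, and 0.0945 under median centring), and Phlda3, an inhibitor of Akt, passed for the difference with neither arm passing (0.68, SE 0.19, adjusted p = 0.0425). Phlda3 lost its call under 12 alternatives, among them 9 single arrays left out.

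The letters TCAAGGTCA, an element of the kind that Esrrb binds, stood in 0.466% of 27025 promoters (both strands, 250 bases before to 50 after the gene start). They stood in 1 of 170 genes with a called difference above 0 and in 0 of 245 below 0. This motif was chosen with the calls known, and the window holds no distal sites.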
